A study of Homo sapiens with 12 samples.

Results

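The genes described are IL17RD and 8 feedback inhibitors of ERK signalling, the Sprouty genes SPRY1, SPRY2 and SPRY4, the Spred genes SPRED1 and SPRED2 and the phosphatase genes DUSP4, DUSP5 and DUSP6. The files list 60708 genes, of which 15388 had enough counts to be tested, all 9 of these among them. The genes were chosen by symbol with earlier results of these libraries in view, and IL17RD was selected on its measured level, which stood out in 1 clone. The values of IL17RD are therefore given as a description, without a test. The other 8 were taken as its pathway, and their p-values are adjusted over all 15388 genes.

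Messenger RNA was profiled in stable clonal lines of hTERT RPE-1, cells of the human retinal pigment epithelium that telomerase keeps dividing. The control clones mCherry_3 and mCherry_4 carried the red fluorescent protein mCherry, and LmnB1_6 and LmnB1_16 carried mCherry joined to lamin B1 (LmnB1), a filament protein of the nuclear lamina. Every culture, controls included, had 0.05 ug/mL doxycycline for 24 hours and hygromycin B in its medium, and each clone gave 3 libraries that the labels number as biological replicates. With 2 clones for each construct, a difference between constructs and one between clones are hard to separate. The p-values set a difference against the spread among these 12 libraries. In contrasts of clones it is the spread between libraries of a clone. The construct comparison counts the 3 libraries of a clone as independent samples. Its p-values therefore do not carry the uncertainty of a comparison of 2 clones with 2. The labels name no promoter for the construct.

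ERK is the last kinase of the Ras, Raf and MEK cascade that carries signals from growth factor receptors to the nucleus. Active ERK switches on genes whose products damp the same cascade, so the messenger RNA of these inhibitors is often read as a trace of pathway activity. Sprouty proteins act between the receptors and Raf, Spred proteins bring the Ras inactivator neurofibromin to the membrane, and the dual-specificity phosphatases DUSP4, DUSP5 and DUSP6 remove the activating phosphates from ERK and related kinases. IL17RD, also called SEF, is a membrane protein with an intracellular part like that of the IL-17 receptors, and it inhibits FGF receptor signalling and the step from MEK to ERK.

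The stretches before the annotated starts of IL17RD and SPRY1 are shown because these were among the genes that differed most between clones. RefSeq (GRCh38.p14) gave 12 promoter entries for 7 of the 9 genes, with none for DUSP4 and DUSP5. IL17RD has entries at a pair of starts on the minus strand of chromosome 3, chr3:57170318-57170567 and chr3:57165376-57165603, and the SPRY1 entry printed is chr4:123396545-123396794 on the plus strand. Each is printed in the direction of transcription, and capitals mark the GC box GGGCGG, the short element bound by SP1-type factors.
IL17RD, first start: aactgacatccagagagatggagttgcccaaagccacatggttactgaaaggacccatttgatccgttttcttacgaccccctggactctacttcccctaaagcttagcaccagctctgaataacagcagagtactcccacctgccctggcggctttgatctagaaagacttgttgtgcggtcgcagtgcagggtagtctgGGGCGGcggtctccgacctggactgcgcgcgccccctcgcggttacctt
IL17RD, second start: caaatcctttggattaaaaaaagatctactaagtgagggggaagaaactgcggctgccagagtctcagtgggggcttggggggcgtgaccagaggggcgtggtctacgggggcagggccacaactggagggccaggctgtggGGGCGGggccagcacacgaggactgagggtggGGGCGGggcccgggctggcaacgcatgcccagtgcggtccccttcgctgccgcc
SPRY1: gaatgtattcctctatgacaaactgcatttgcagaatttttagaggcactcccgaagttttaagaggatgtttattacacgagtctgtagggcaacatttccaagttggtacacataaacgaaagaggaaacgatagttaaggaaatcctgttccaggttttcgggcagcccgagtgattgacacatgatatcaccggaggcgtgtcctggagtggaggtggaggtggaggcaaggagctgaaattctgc
The first IL17RD window held 1 GC box, beginning 49 bases before the start, and the second had matches 108, 76 and 6 bases before it, the last of them within an annotated exon whose 22 bases are not printed. The printed SPRY1 window held none. The window at another SPRY1 start, which lies wholly within annotated exon and is not printed, held 2.

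Motifs were searched on both strands in the 250 bases before each start, and were picked after the expression values had been seen. GGGCGG was found in 42.6% of 35116 RefSeq windows of that length. CCGGAAG, the site of ETS factors such as ETV4, lies in 8.52% of them, the AP-1 site TGANTCA in 6.57% and the cyclic AMP response element TGACGTCA in 1.65%. Among the 12 windows of these genes a single one, at another start of SPRY1, held CCGGAAG, and none held TGANTCA or TGACGTCA. A match is a description of the letters and not a measured binding site. Gene-level counts do not separate transcripts from the 2 IL17RD starts.

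Libraries held between 20.6 and 29.5 M estimated counts, and transcripts of the mitochondrial genome took 2.06% to 2.69% of them. LMNB1, the gene of the construct, was at 84.98 ± 7.12 CPM (counts scaled to a common library size; SD, n = 3) in mCherry_3, 161 ± 7.29 CPM in mCherry_4, 3976 ± 164 CPM in LmnB1_6 and 3374 ± 273 in LmnB1_16, in the direction of the labels. Clone LmnB1_6 differed from the others in several pigment epithelial markers, in both directions. Over its 3 libraries OTX2 had 0 counts, which allows up to 0.0406 CPM by counting error alone, and MITF had 5, where each other clone had at least 776 and 2130. PAX6 was higher there, at 72.4 CPM against 34.97 to 39.1, as was SERPINF1 at 1.43 against 0.200 to 0.595. RLBP1, near the floor, was at 0.236 ± 0.126 CPM there (SD, n = 3) against clone means of at most 0.0553 elsewhere. The summed TPM (transcript abundance scaled by length) of 10 epithelial and pigment epithelium markers, 7 of them tested, ranged from 1433 to 1620 in mCherry_3, 976 to 1072 in mCherry_4, 680 to 751 in LmnB1_6 and 920.03 to 1059 in LmnB1_16. Most of that sum was the keratin genes KRT8 and KRT18, with means of 600 and 828 TPM in mCherry_3 and 300 and 360 in LmnB1_6. MITF and PAX6 reached clone means of at most 26.0 and 51.8 TPM, so the sum says little about pigment epithelial markers. RPE65 and TYR had no counts in any library, and the sums of the leukocyte, endothelial and muscle lists did not pass 0.803, 1.21 and 2.49 TPM.

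IL17RD (ENSG00000144730.19, chromosome 3, 57089982 to 57170306, minus strand, GRCh38) was low in 3 clones and high in LmnB1_6. Its CPM in the 3 libraries of each clone were 7.08, 6.20 and 5.99 in mCherry_3, 8.94, 7.64 and 7.80 in mCherry_4, 207, 180.0 and 193 in LmnB1_6, and 13.7, 15.6 and 13.9 in LmnB1_16. In CPM no libraries of neighbouring clones overlapped in the order mCherry_3, mCherry_4, LmnB1_16 and LmnB1_6. In TPM mCherry_3 (1.44 to 1.82) and mCherry_4 (1.51 to 2.03) overlapped. The share of all genes with such an order was not computed. The lowest LmnB1_6 library was 20.1 times the highest mCherry_4 library, and the lowest LmnB1_16 library was 1.54 times it. These values rest on 162 to 198 estimated counts a library in the mCherry clones, 282 to 378 in LmnB1_16 and 3669 to 5761 in LmnB1_6.

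By clone means, IL17RD was 30.1 and 23.8 times as abundant in LmnB1_6 as in mCherry_3 and mCherry_4, and 13.4 times as abundant as in LmnB1_16 (ratios of CPM). LmnB1_16 exceeded the mCherry clones 2.24-fold and 1.77-fold, and mCherry_4 exceeded mCherry_3 1.26-fold. The smaller ratios depend on transcript length, since the effective length deposited for IL17RD was 8248 ± 333 bases in LmnB1_16 against 6214 ± 349, 6625 ± 1608 and 6867 ± 258 in mCherry_3, mCherry_4 and LmnB1_6. In TPM the ratios of LmnB1_6 to the mCherry clones were 24.7 and 22.4, those of LmnB1_16 were 1.60 and 1.45, and mCherry_4 to mCherry_3 was 1.10. Across the 15388 genes the median ratio between the highest and the lowest clone mean was 1.42, and 189 genes (1.23%) had one at least as large as IL17RD (0.1 CPM added). In these bulk libraries, a larger share of cells with the transcript and more transcript per cell cannot be told apart. LmnB1_6 is also the clone without OTX2 and nearly without MITF counts, and the part of that difference in the IL17RD level was not tested.

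**Figure D1:**
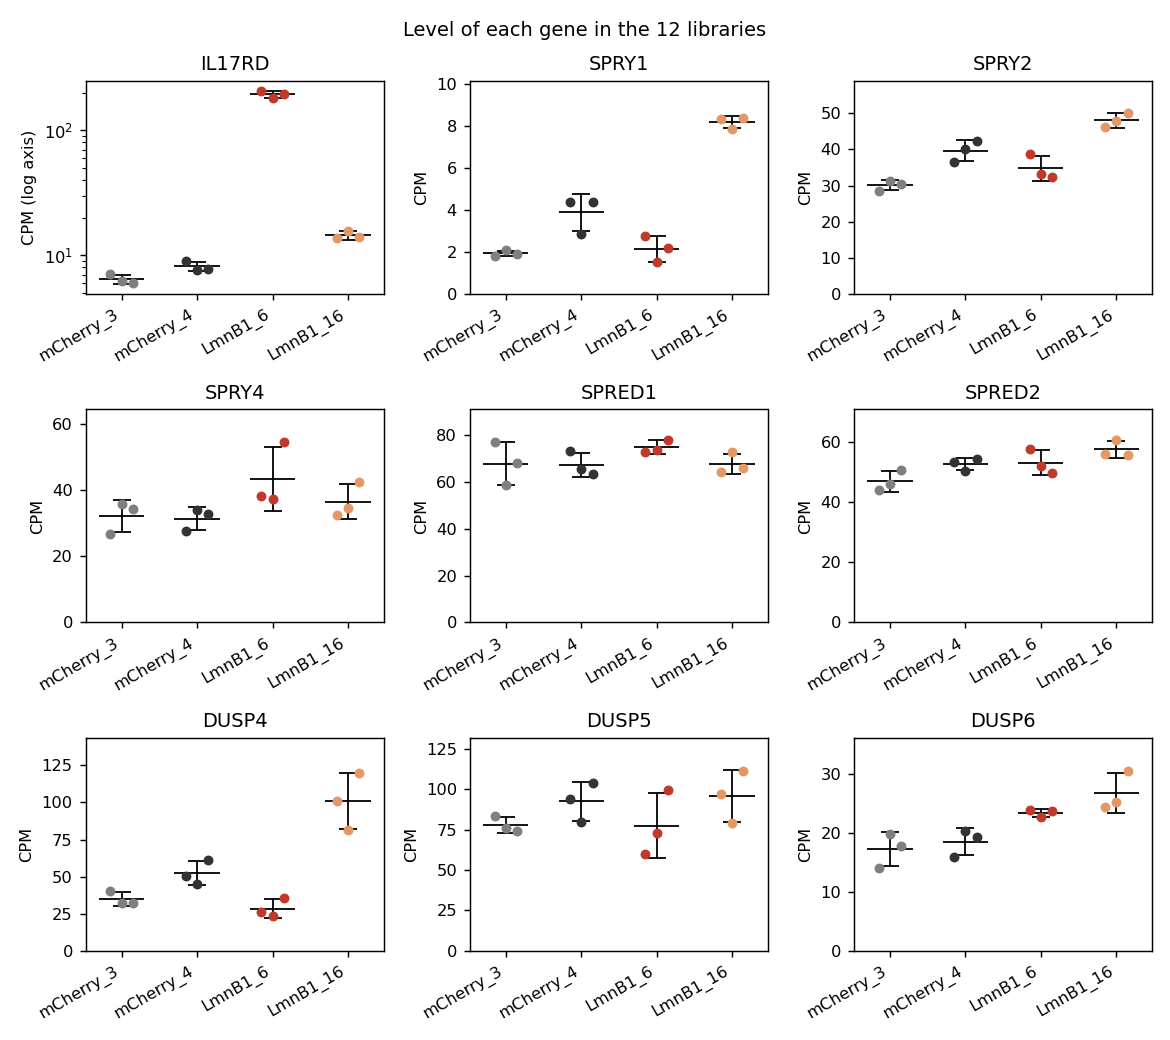
CPM of the 9 genes in each of the 12 libraries, grouped by clone on the x axis, with points for libraries, a line at the mean of 3 and bars of 1 SD; the IL17RD axis is logarithmic and the other axes start at 0. IL17RD at 180.0 to 207 CPM in LmnB1_6, SPRY1 and DUSP4 highest in LmnB1_16, and DUSP6 above 22 CPM in every LmnB1 library stand out from the flat rows of SPRED1 and SPRED2.

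Per length, DUSP5 was the most abundant of the 9 transcripts in every clone, at 49.6 to 63.3 TPM by clone mean. IL17RD was the least abundant in mCherry_3, mCherry_4 and LmnB1_16 at 1.61, 1.77 and 2.57 TPM, and the second most abundant in LmnB1_6 at 39.7 ± 3.63 TPM (SD, n = 3), above SPRY2 at 23.96 ± 1.81. SPRY1 was the least abundant there, at 1.97 ± 0.677 TPM. The ratio of the highest to the lowest clone mean CPM was 4.22 for SPRY1, 3.55 for DUSP4, 1.60 for SPRY2, 1.55 for DUSP6, 1.38 for SPRY4, 1.24 for DUSP5, 1.22 for SPRED2 and 1.11 for SPRED1.

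The construct comparison, 6 LmnB1 against 6 mCherry libraries, asks what changes with the lamin B1 fusion. Of the 8 inhibitors besides IL17RD, DUSP6 alone was called (Benjamini-Hochberg adjusted p under 0.05 in edgeR's quasi-likelihood test), and it was higher. Among all tested genes 8.58% were called higher and 9.25% lower, so 1 call in 8 is near the background. All 8 had a positive log2 fold change, with a median of 0.29 against 0.0022 for all genes, but 4 of those signs turned without LmnB1_16, when SPRY1 went to -0.43, DUSP4 to -0.62, DUSP5 to -0.135 and SPRY2 to -0.004. The sign of DUSP5, at 0.03 with all libraries, also turned under other alternatives. The libraries of the 2 constructs did not overlap for DUSP6 among the 8, where 8.66% of all tested genes showed no overlap. With counts summed per clone edgeR called none of the 8 and no gene at all (642 genes, 1 of the 8 among them, at an unadjusted p under 0.05).

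DUSP6 (ENSG00000139318.8, chromosome 12, 89347232 to 89353271, minus strand) encodes the cytoplasmic phosphatase that acts on ERK itself. It was measured at 14.1, 19.8 and 17.8 CPM in mCherry_3, 15.9, 20.3 and 19.3 in mCherry_4, 23.9, 22.7 and 23.8 in LmnB1_6, and 24.5, 25.3 and 30.6 in LmnB1_16. Every LmnB1 library lay above every mCherry library, by a margin of 2.39 CPM between the nearest. The mean was 17.9 ± 2.45 CPM in the mCherry and 25.2 ± 2.82 in the LmnB1 libraries (SD, n = 6 libraries from 2 clones). The log2 fold change was 0.49 with an SE of 0.10 (edgeR adjusted p = 0.00899). DUSP6 was called higher in all 4 contrasts of an LmnB1 with an mCherry clone, with log2 fold changes of 0.44 and 0.34 for LmnB1_6 and 0.64 and 0.54 for LmnB1_16, each against mCherry_3 and mCherry_4. These contrasts share clones, and 4.68% of all tested genes were called the same way in all 4.

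The construct call for DUSP6 was lost without clone mCherry_3 (edgeR adjusted p = 0.0628), with clone as a random effect (limma adjusted p = 0.257) and with summed counts (edgeR adjusted p = 0.778), in a range from 0.000201 over 27 alternatives. The call against mCherry_3 was lost for both LmnB1 clones with an effective length offset (log2 fold changes 0.37 and 0.41, edgeR adjusted p = 0.0818 and 0.0657). LmnB1_6 against mCherry_4 had the weakest call (edgeR adjusted p = 0.0408), and it was lost without any 1 of 6 libraries: LmnB1_6 replicate 1, 2 or 3, mCherry_4 replicate 1 or 3, or mCherry_3 replicate 3 (adjusted p = 0.0963, 0.0663, 0.0863, 0.186, 0.0601 and 0.0517). In TPM the constructs overlapped, since mCherry_3 reached 15.8 and the lowest LmnB1 library was at 13.7. An antisense gene, ENSG00000274021, overlaps DUSP6 and took 472 counts in all against 6288 for DUSP6, and the strand of the libraries is not given. Its log2 fold change was 0.47 (edgeR adjusted p = 0.305), and the summed CPM of both genes ran from 14.9 to 21.5 in the mCherry and 24.97 to 33.7 in the LmnB1 libraries.

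DUSP4 (ENSG00000120875.9) encodes a nuclear phosphatase of ERK and other MAP kinases, and it differed between clones of the same construct. It was measured at 40.2, 32.5 and 32.3 CPM in mCherry_3, 50.7, 45.2 and 61.4 in mCherry_4, 26.3, 23.3 and 35.7 in LmnB1_6, and 101, 81.8 and 119.7 in LmnB1_16. LmnB1_16 lay above all other libraries, and LmnB1_6 and mCherry_3 overlapped at the low end. Between the constructs it was not called (log2 fold change 0.57, SE 0.39, edgeR adjusted p = 0.327). Against mCherry_4, DUSP4 was lower in LmnB1_6 (log2 fold change -0.87, SE 0.16, edgeR adjusted p = 0.000377) and higher in LmnB1_16 (0.95, SE 0.15, adjusted p = 0.000376). Against mCherry_3 it was higher in LmnB1_16 (1.53, SE 0.16, edgeR adjusted p = 8.76e-07) and not called in LmnB1_6 (-0.29, adjusted p = 0.147), where it was called lower without LmnB1_6 replicate 3 (-0.49, adjusted p = 0.018), without the 3 libraries numbered 3 of the clones other than mCherry_3 (-0.50, adjusted p = 0.00383) and without a filter on low counts (adjusted p = 0.00158).

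DUSP5 (ENSG00000138166.6, chromosome 10, 110497838 to 110511544, plus strand), the nuclear phosphatase gene specific to ERK, was called in none of the 7 comparisons. It was measured at 83.3, 75.8 and 74.4 CPM in mCherry_3, 93.7, 79.9 and 104 in mCherry_4, 59.9, 72.9 and 99.6 in LmnB1_6, and 97.3, 79.2 and 111 in LmnB1_16. In mCherry_4, LmnB1_6 and LmnB1_16 replicate 3 was the highest library, as it was for DUSP4, and these libraries deviated together across all genes. All clones overlapped, and the spread within LmnB1_6 was wide. Without its replicate 3, the highest, DUSP5 was called lower in LmnB1_6 than in LmnB1_16 (log2 fold change -0.54, edgeR adjusted p = 0.00516) and than in mCherry_4 (-0.48, adjusted p = 0.0102), and higher in LmnB1_16 than in mCherry_3 (0.30, adjusted p = 0.0415). The last of these was also called without LmnB1_16 replicate 2 (0.42, edgeR adjusted p = 0.0354), as was the first (-0.42, adjusted p = 0.0442).

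SPRY1 (ENSG00000164056.11, chromosome 4, 123396795 to 123403760, plus strand) had the lowest counts of the set's Sprouty genes and its widest differences between clones after IL17RD. It was measured at 1.83, 2.08 and 1.92 CPM in mCherry_3, 4.38, 2.88 and 4.41 in mCherry_4, 2.74, 1.52 and 2.18 in LmnB1_6, and 8.32, 7.87 and 8.39 in LmnB1_16, on 31 to 229 estimated counts a library. LmnB1_16 was above all other libraries, while LmnB1_6 and mCherry_3 overlapped. SPRY1 was higher in LmnB1_16 than in mCherry_3 (log2 fold change 2.07, SE 0.21, edgeR adjusted p = 7.73e-07) and mCherry_4 (1.08, SE 0.20, adjusted p = 0.00118). In LmnB1_6 it was lower than in mCherry_4 (-0.84, SE 0.22, edgeR adjusted p = 0.00535) and not called against mCherry_3 (0.15, adjusted p = 0.599). Between the constructs it was not called (0.83, SE 0.45, edgeR adjusted p = 0.211).

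SPRY2 (ENSG00000136158.12, chromosome 13, 80335976 to 80340951, minus strand) had the same order of clones in smaller steps. It was measured at 28.5, 31.2 and 30.4 CPM in mCherry_3, 36.6, 39.98 and 42.3 in mCherry_4, 38.6, 33.1 and 32.5 in LmnB1_6, and 46.1, 47.8 and 50.2 in LmnB1_16. LmnB1_16 again lay above the rest, and LmnB1_6 overlapped mCherry_4. The largest SPRY2 difference was LmnB1_16 over mCherry_3 (log2 fold change 0.68, SE 0.08, edgeR adjusted p = 3.97e-06). LmnB1_16 over mCherry_4 was called at 0.28 (edgeR adjusted p = 0.0247) but not without mCherry_4 replicate 1 or 2 or LmnB1_16 replicate 3 (adjusted p = 0.124, 0.0613 and 0.0951). LmnB1_6 over mCherry_3 was called at 0.21 (edgeR adjusted p = 0.0384) but not without mCherry_3 replicate 1 or 3 or LmnB1_6 replicate 1 (adjusted p = 0.129, 0.0745 and 0.217). Against mCherry_4, LmnB1_6 was not called (-0.19, edgeR adjusted p = 0.0713) except without mCherry_4 replicate 1 or LmnB1_6 replicate 1 (adjusted p = 0.0438 and 0.0168).

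SPRY4 (ENSG00000187678.10, chromosome 5, 142310427 to 142326455, minus strand) differed from the other Sprouty genes in that its highest clone mean was in LmnB1_6. It was measured at 26.7, 35.7 and 34.3 CPM in mCherry_3, 27.5, 33.8 and 32.8 in mCherry_4, 38.2, 37.2 and 54.5 in LmnB1_6, and 32.5, 34.7 and 42.4 in LmnB1_16. The LmnB1_6 libraries were above all mCherry libraries and overlapped LmnB1_16. SPRY4 was higher in LmnB1_6 than in mCherry_3 (log2 fold change 0.43, SE 0.15, edgeR adjusted p = 0.0202) and mCherry_4 (0.47, SE 0.15, adjusted p = 0.0191). Both calls rested on LmnB1_6 replicate 3, without which the changes were 0.23 and 0.27 (edgeR adjusted p = 0.17 and 0.14). They were also lost without replicate 1 of the mCherry clone in question (0.31 and 0.38, edgeR adjusted p = 0.106 and 0.093), and with an effective length offset (adjusted p = 0.0937 and 0.096).

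The Spred genes were the flattest of the set in CPM. SPRED1 (ENSG00000166068.13, chromosome 15, 38252326 to 38357249, plus strand) was between 58.8 and 78.2 CPM in the 12 libraries, with clone means of 67.95, 67.5, 74.99 and 67.7 in mCherry_3, mCherry_4, LmnB1_6 and LmnB1_16. It was called in no comparison (construct log2 fold change 0.08, SE 0.07, edgeR adjusted p = 0.487), although leaving out mCherry_3 replicate 1 gave a call for LmnB1_6 over mCherry_3 (0.24, adjusted p = 0.0251). SPRED2 (ENSG00000198369.10, chromosome 2, 65310851 to 65432637, minus strand) ran from 43.9 to 60.6 CPM. It was higher in LmnB1_16 than in mCherry_3 (57.4 ± 2.78 against 46.8 ± 3.49 CPM, SD, n = 3), with a log2 fold change of 0.29 and an SE of 0.07 (edgeR adjusted p = 0.00394). Without LmnB1_16 replicate 2, mCherry_3 replicate 3 or LmnB1_6 replicate 3, SPRED2 was also called for LmnB1_6 over mCherry_3 (edgeR adjusted p = 0.0405, 0.0234 and 0.0252, against 0.0519 with all libraries), and without mCherry_3 replicate 3 for mCherry_4 over mCherry_3 (adjusted p = 0.0451). Per length SPRED2 was called lower in LmnB1_6 than in LmnB1_16. The log2 fold change was -0.32 with an effective length offset (edgeR adjusted p = 0.0181) and -0.38 in TPM with 0.1 added (limma adjusted p = 0.0126). Without the offset it was -0.11, not called (edgeR adjusted p = 0.26).

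**Figure D2:**
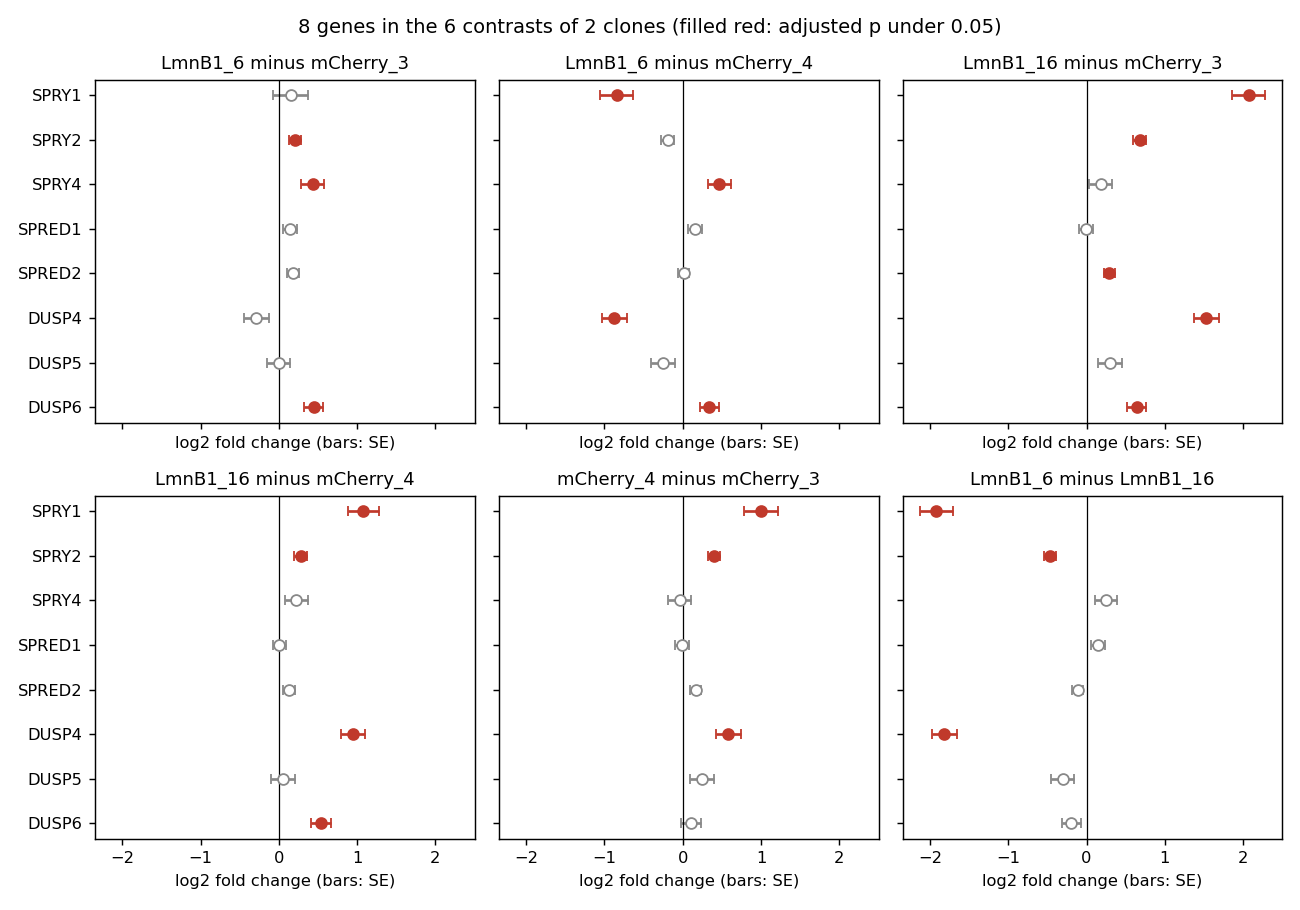
Log2 fold change (x axis) of the 8 genes besides IL17RD in the 6 contrasts of 2 clones, with bars of 1 SE and filled red points for adjusted p under 0.05. SPRY1 and DUSP4 lie right of 0 in LmnB1_16 against either mCherry clone, left of 0 in LmnB1_6 against mCherry_4, and farthest left in LmnB1_6 against LmnB1_16 (-1.92 and -1.82); DUSP6 is right of 0 in all 4 contrasts of an LmnB1 with an mCherry clone.

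By clone, LmnB1_16 held the most calls among the 8 genes. Against mCherry_3, 5 were higher in it (SPRY1, SPRY2, SPRED2, DUSP4 and DUSP6) and 0 lower, where 22.5% and 22.0% of all tested genes were called higher and lower. Against mCherry_4, 4 were higher (SPRY1, SPRY2, DUSP4 and DUSP6) and 0 lower, against 6.67% and 9.0% of all genes. The medians over the 8 were 0.47 and 0.25 on the log2 scale, beside 0.0045 and 0.0022 over all genes. The genes were chosen with these libraries in view, so the counts are descriptions. Without the 3 libraries numbered 3 of mCherry_4, LmnB1_6 and LmnB1_16, which deviated together across all genes, SPRY1 and DUSP4 stayed called against mCherry_4 and SPRY2 and DUSP6 did not (edgeR adjusted p = 0.0717 and 0.0762).

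LmnB1_6 had 3 of the 8 higher and 0 lower against mCherry_3 (SPRY2, SPRY4 and DUSP6), where 26.0% and 26.8% of all genes were called, a share near the background. All 3 calls were lost with an effective length offset and with TPM. Against mCherry_4, 2 were higher (SPRY4 and DUSP6) and 2 lower (SPRY1 and DUSP4), beside 17.1% and 20.1% of all genes, with a median of -0.09. Without the 3 libraries that deviated together DUSP4 stayed called, SPRY1, SPRY4 and DUSP6 did not (edgeR adjusted p = 0.0693, 0.12 and 0.0916), and DUSP5 was called lower (-0.39, adjusted p = 0.0221).

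The control clones differed as well. SPRY1, SPRY2 and DUSP4 were higher in mCherry_4 than in mCherry_3 (log2 fold changes 1.00, 0.40 and 0.58, edgeR adjusted p = 0.00167, 0.000887 and 0.00795), and none of the 8 was lower, where 19.9% and 17.4% of all genes were called. In TPM the DUSP4 difference was not called (limma adjusted p = 0.0932 with 0.1 added). The same 3 genes were lower in LmnB1_6 than in LmnB1_16 (SPRY1 -1.92, SE 0.21, edgeR adjusted p = 1.64e-06; SPRY2 -0.47, SE 0.08, adjusted p = 0.000188; DUSP4 -1.82, SE 0.16, adjusted p = 1.18e-07). None was higher, and 16.6% and 17.8% of all genes were called higher and lower in that contrast. Within the same 2 clones IL17RD went the other way, at 193 against 14.4 CPM.

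Genes that report ERK activity were taken from a list of 15 response genes. In the construct comparison 4 rose and 0 fell, where 8.58% and 9.25% of all tested genes were called higher and lower, and the median log2 fold change was 0.30 beside 0.0022 over all genes. ETV4, an ETS transcription factor gene switched on by FGF and ERK signalling, was at 24.98 ± 3.00 CPM in mCherry_3, 19.7 ± 0.604 CPM in mCherry_4, 42.2 ± 1.43 CPM in LmnB1_6 and 39.3 ± 1.44 in LmnB1_16 (SD, n = 3). Its log2 fold change was 0.87 with an SE of 0.09 (edgeR adjusted p = 0.000206). Its relative ETV1 went from 34.4 and 36.1 to 58.0 and 72.9 CPM (log2 fold change 0.89, edgeR adjusted p = 0.000107). LIF, a cytokine gene, had a log2 fold change of 0.93 (edgeR adjusted p = 0.00104). ETV4, ETV1 and LIF each lost the call in 1 of 27 alternatives, that with counts summed per clone. ETV5, the third ETS gene of this group, changed by 0.30 (edgeR adjusted p = 0.00939), and its call was lost without clone mCherry_3 or LmnB1_6.

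FOSL1 and EGR1 from that list differed in opposite directions between the LmnB1 clones and are named after their values were seen. FOSL1 encodes a subunit of AP-1 and EGR1 a zinc finger factor. FOSL1 was at 270.2 and 458 CPM in mCherry_3 and mCherry_4, 219.5 in LmnB1_6 and 426 in LmnB1_16 (LmnB1_6 against LmnB1_16 -0.96, edgeR adjusted p = 2.35e-08). EGR1 was at 44.8 ± 14.2, 12.3 ± 1.32, 58.3 ± 16.1 and 30.3 ± 9.20 CPM (SD, n = 3) in the same order of clones (0.94, edgeR adjusted p = 0.00528). The control clones also differed in opposite directions. In mCherry_4 against mCherry_3 FOSL1 was at 0.76 and EGR1 at -1.86 (edgeR adjusted p = 6.39e-07 and 2.86e-05). In LmnB1_6 against LmnB1_16, 2 of the 15 were higher and 5 lower, beside 16.6% and 17.8% of all genes.

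Among 17 other negative regulators 0 rose and 4 fell between the constructs, beside 8.58% and 9.25% of all genes, with a median of -0.08. DUSP1, an early response phosphatase gene that acts mainly on the stress kinases p38 and JNK, fell most. It was at 193 ± 16.8 CPM in mCherry_3, 149 ± 11.9 CPM in mCherry_4, 52.9 ± 6.33 CPM in LmnB1_6 and 75.1 ± 12.1 in LmnB1_16 (SD, n = 3). Its log2 fold change was -1.41 with an SE of 0.15 (edgeR adjusted p = 0.000214). Its call was lost in 1 of 27 alternatives, that with summed counts. SPRED3, DUSP2 and SPRY3 had changes of -0.69, -0.95 and -0.78 (edgeR adjusted p = 0.0216, 0.0372 and 0.0398), lost in 8, 15 and 18 of the 27. DUSP2 and SPRY3 were low, with clone means of 0.687 to 2.14 and 1.01 to 2.57 CPM. The SPRED3 call ended without mCherry_3 replicate 2 or 3 (edgeR adjusted p = 0.0504 and 0.0528). Those of DUSP2 and SPRY3 ended without any 1 library of mCherry_3 or LmnB1_6, for DUSP2 also without mCherry_4 replicate 2, and for SPRY3 also without mCherry_4 replicate 3 or LmnB1_16 replicate 1 (edgeR adjusted p from 0.0531 to 0.0907). ERRFI1, an EGF receptor inhibitor named after its values were seen, was at 161, 177, 86.3 and 269 CPM in mCherry_3, mCherry_4, LmnB1_6 and LmnB1_16 (LmnB1_6 against LmnB1_16 -1.64, SE 0.05, edgeR adjusted p = 3.91e-13).

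Of 18 genes of the cascade from Ras to the ribosomal S6 kinases 0 rose and 1 fell between the constructs, with a median of -0.03 and the same 8.58% and 9.25% of all genes called. That gene was MAP2K1, which encodes the ERK kinase MEK1, with a log2 fold change of -0.34 (edgeR adjusted p = 0.0168), and its call was lost without clone mCherry_3 (-0.17, adjusted p = 0.191) or LmnB1_16 (-0.28, adjusted p = 0.0628). Of 16 FGF ligands, receptors and adaptors 10 were tested, 0 rose and 2 fell. FGF1, a ligand gene, was at 56.1 ± 4.58 CPM in mCherry_3, 69.6 ± 3.87 CPM in mCherry_4, 25.9 ± 3.66 CPM in LmnB1_6 and 35.9 ± 2.34 in LmnB1_16 (SD, n = 3). Its log2 fold change was -1.03 with an SE of 0.13 (edgeR adjusted p = 0.000665). FGF2 changed by -0.56 (edgeR adjusted p = 0.0203), a call lost in 7 of 27 alternatives, among them without clone LmnB1_6 (-0.29, adjusted p = 0.123), clone mCherry_3 (-0.57, adjusted p = 0.108) or mCherry_3 replicate 1 (adjusted p = 0.0503). FGFR1, the abundant FGF receptor gene here and named after its values were seen, was at 178, 198, 187 and 157 CPM in mCherry_3, mCherry_4, LmnB1_6 and LmnB1_16.

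Among the other IL-17 receptor genes, 5 of 6 were tested, 0 rose and 1 fell between the constructs, beside 8.58% and 9.25% of all genes. It was IL17RC (log2 fold change -0.41, edgeR adjusted p = 0.0281), whose call was lost in 14 of 27 alternatives, among them each one that left out a single library of mCherry_3 or LmnB1_6 (adjusted p = 0.0549 to 0.0686). IL17RA, the shared chain of IL-17 receptors and named after its values were seen, was at 66.02 and 30.3 CPM in mCherry_3 and mCherry_4, 50.8 in LmnB1_6 and 11.5 in LmnB1_16. It was called lower in LmnB1_16 than in each mCherry clone (log2 fold changes -2.53 and -1.40, edgeR adjusted p = 1.97e-11 and 4.45e-08). Over the 5 pathway lists 12 genes were called between the constructs, a number that was 0 with summed counts, 7 without clone mCherry_3 and 28 without LmnB1_16. Over all tested genes, 2743 of 15388 were called, and 0, 647 and 4808 in these settings, so the list count moved with the background.

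**Figure D3:**
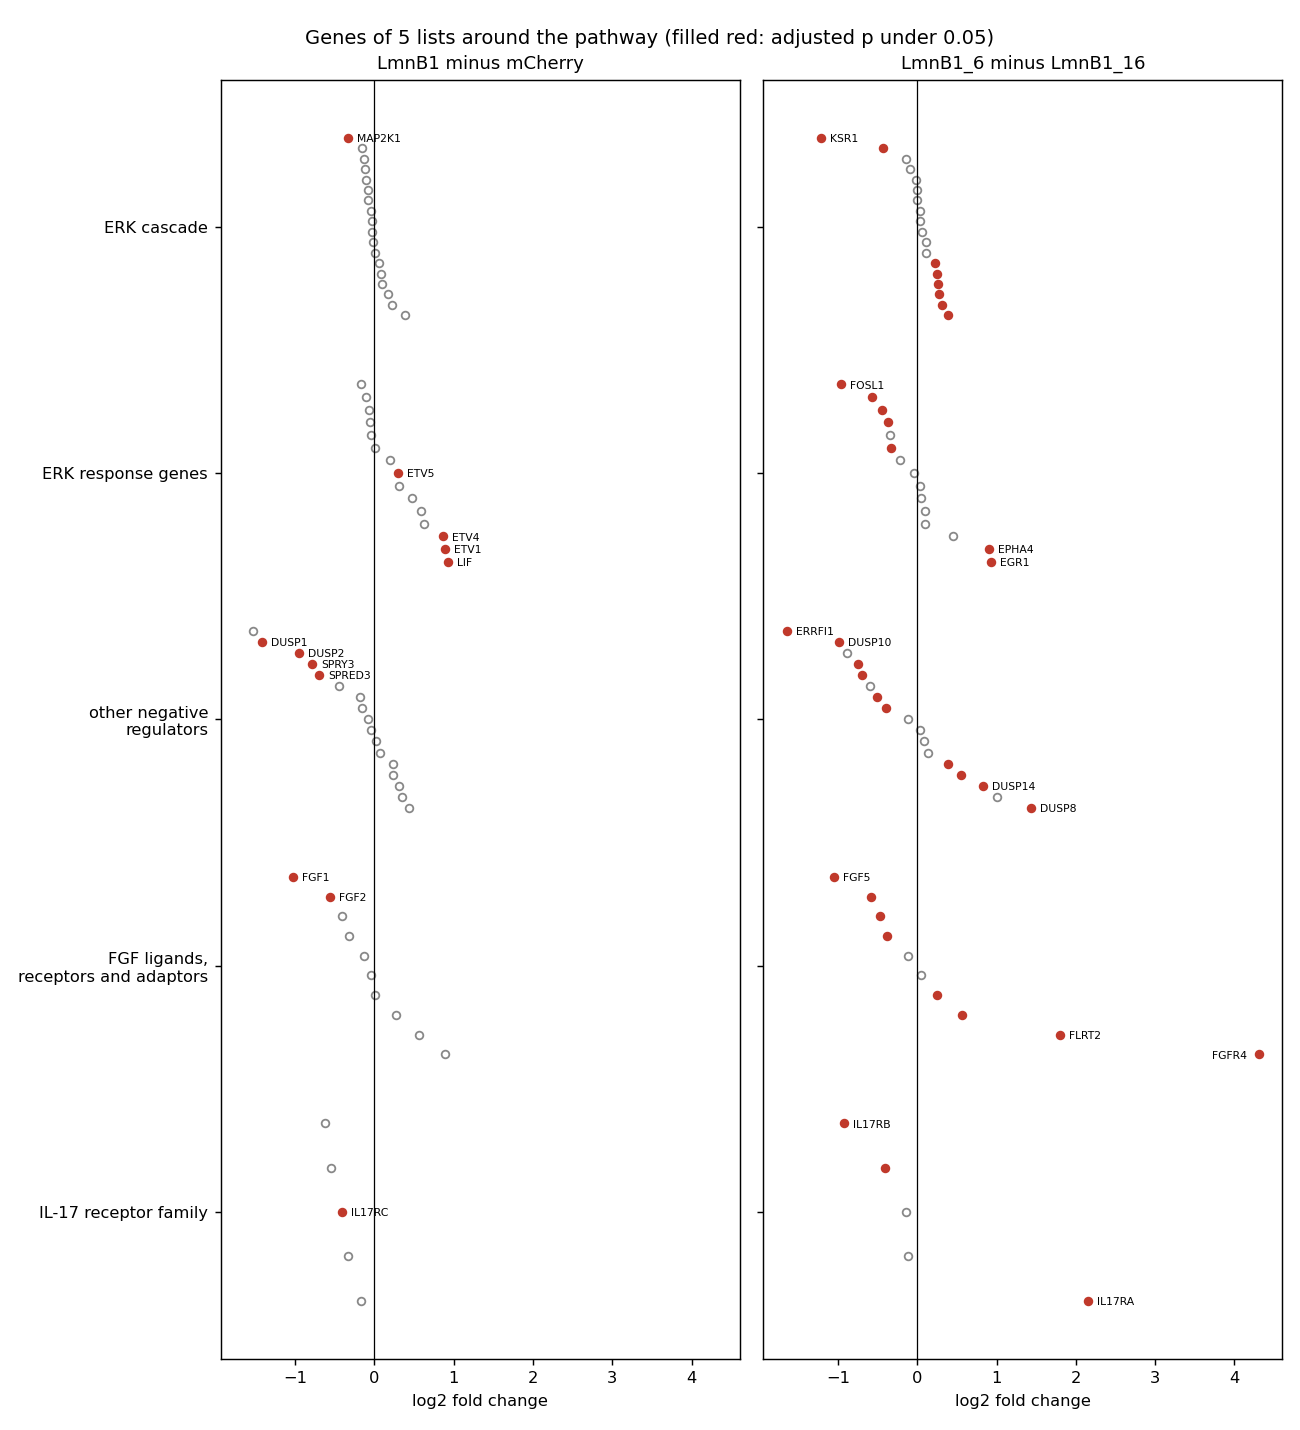
Log2 fold change (x axis) of the tested genes of 5 pathway lists (rows), between the constructs on the left and in LmnB1_6 against LmnB1_16 on the right, with filled red points for adjusted p under 0.05 and names for the called genes (on the right only those past 0.8). ETV1, ETV4 and LIF are right of 0 and DUSP1 and FGF1 left of it between the constructs, and ERRFI1 and IL17RA are among the called genes between the 2 LmnB1 clones, where 16.6% and 17.8% of all genes were called higher and lower. The farthest point, FGFR4, rests on clone means of at most 0.962 CPM.

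Genes around IL17RD were measured to see whether its level was shared by its region. GENCODE 29 lists 23 other genes at least partly within 500 kb, of which 9 were tested. APPL1, an endosomal adaptor gene that is transcribed away from IL17RD on the other strand, was higher in the LmnB1 libraries (log2 fold change 0.30, SE 0.07, edgeR adjusted p = 0.0109), and ARF4, a Golgi GTPase gene, was lower (-0.21, SE 0.05, adjusted p = 0.0156). Both calls were lost without clone mCherry_3 (edgeR adjusted p = 0.126 and 0.0712) or LmnB1_6 (adjusted p = 0.079 and 0.146). CCDC66, TASOR, ARHGEF3, ASB14, PDE12, ARF4-AS1 and DENND6A were not called. Of all tested genes 8.58% were called higher and 9.25% lower.

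In LmnB1_6 against mCherry_3, where IL17RD had a log2 fold change of 4.91, APPL1 was called at 0.46, TASOR at -0.33, ARHGEF3 at -0.28 and ARF4 at -0.27. Of all tested genes 26.0% were called higher and 26.8% lower in that contrast, so calls of this kind were common. ARHGEF3, the neighbour on the downstream side, was at 15.03, 9.005, 12.4 and 9.54 CPM in mCherry_3, mCherry_4, LmnB1_6 and LmnB1_16, an order unlike that of IL17RD. HESX1, the nearest gene upstream, was not tested, with 69 counts over all libraries and clone means of 0.0983 to 0.311 CPM. RPL19P2, a pseudogene within IL17RD on the opposite strand, had 0 counts. In SPRY4 the antisense gene SPRY4-AS1 took 47 counts against 10624.

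**Figure D4:**
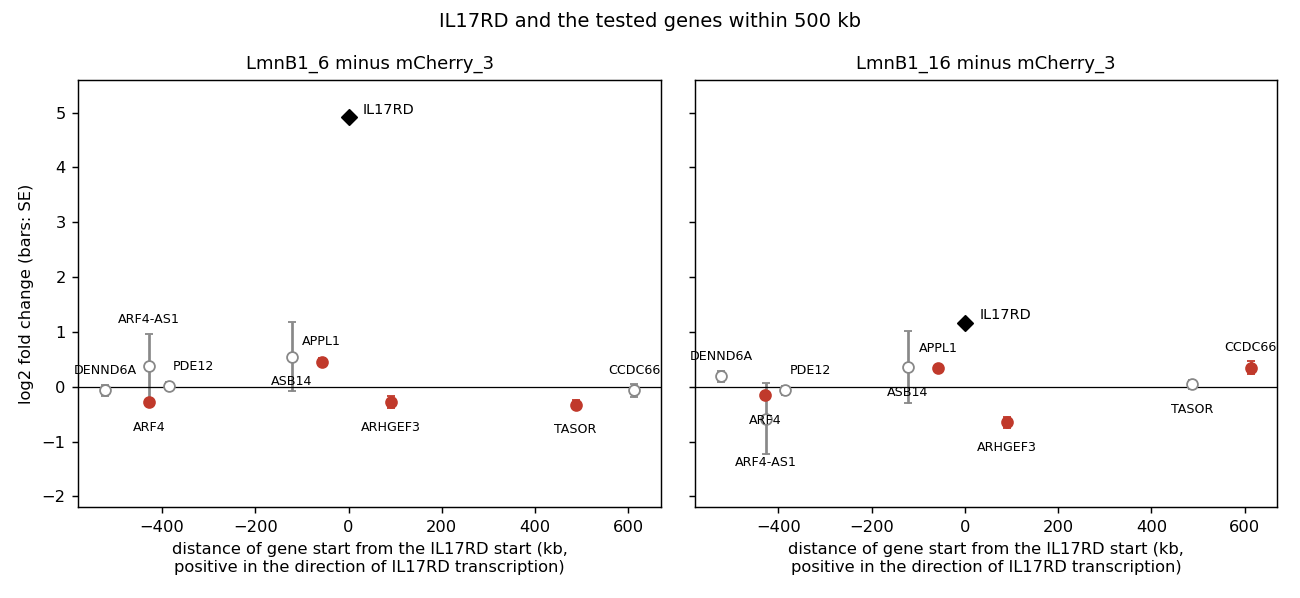
Log2 fold change (y axis, bars of 1 SE, filled red for adjusted p under 0.05) of the 9 tested neighbours against the distance of their start from that of IL17RD in kb (x axis), in LmnB1_6 and LmnB1_16 against mCherry_3; the black diamond is IL17RD, drawn without a test. IL17RD at 4.91 in LmnB1_6 and 1.16 in LmnB1_16 lies above every neighbour, the called ones of which stay between -0.65 and 0.46.

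The genes whose pattern over the 12 libraries was most like that of IL17RD were ranked among 11789 protein-coding genes by the root mean square difference of centred log2 CPM. Among the nearest were SNAP25, a synaptic vesicle fusion gene (0.35), PMEPA1, a TGF-beta response gene (0.41), SNAI2, a transcription factor gene of epithelial to mesenchymal transition (0.47), and COL1A1, the collagen I chain (0.55). Each of these 4 was high in LmnB1_6. COL1A1 was at 186 CPM there against 15.1 to 20.5 in the other clones, and SNAI2 at 40.3 against 1.27 to 2.87. The ranking is a description, and its 12 points are 4 clones with 3 libraries each. The 8 inhibitors ranked far lower, the first being SPRY4 at rank 1503 and DUSP6 at 2126, and the last SPRY1 and DUSP4 at 10905 and 10994. The measure includes the size of a difference, so a gene with small changes is far from IL17RD whatever their direction. These ranks therefore cannot tell whether the inhibitors moved with IL17RD.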

How the data were processed

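Messenger RNA was measured in 12 libraries, 3 from each of 4 clones. Per the file headers, the authors deposited Salmon gene tables with estimated counts, effective lengths and TPM, and the submitters' processing notes name STAR, Salmon, DESeq2 and the build GRCh38, without versions or roles. Strand and read length were not found in the labels. Between 31.3% and 32.6% of the nonzero estimated counts were not whole, and all were rounded before testing. Of 60708 genes 58426 matched GENCODE 29. Genes with low counts were removed with filterByExpr in edgeR 4.0.16 (R 4.3.3; minimum count 10, minimum total 15), libraries were scaled by TMM, and quasi-likelihood tests with Benjamini-Hochberg adjustment at 0.05 compared the constructs (6 against 6 libraries) and each pair of clones. The tests were checked on simulated counts. The TPM the authors deposited were used for comparisons between genes and, in limma 3.58.1, as an alternative, and DESeq2 1.42.0 was another.

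The genes, the pathway lists and the tests were chosen with earlier results of these data known. The text names the 9 genes, up to 4 called genes of each pathway list by smallest adjusted p, the tested genes within 500 kb of IL17RD and the 5 protein-coding genes nearest to it in pattern, 1 of which is not reported here, and marks the others it names. Precision is limited by 3 libraries a clone and by the counts given beside low genes. Intervals were not computed, and the limit for 0 counts covers counting error alone.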

Additional observations from a re-analysis of the deposited data

Results flagged for a closer look

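The 2 LmnB1 clones differed from each other in 3 of the 8 inhibitors by a test of the difference itself, a share near the background, since 16.6% of all tested genes were called higher and 17.8% lower in that contrast. SPRY1 was lower in LmnB1_6 than in LmnB1_16 by a log2 fold change of -1.92, SPRY2 by -0.47 and DUSP4 by -1.82, with every LmnB1_6 library below every LmnB1_16 library in all 3. The share of all genes without overlap between these clones was not computed. The 3 genes were taken because they were called in this contrast, so that order is a description and adds no support. LmnB1_6 is also the clone with 0 OTX2 counts, and the part of that in these differences was not tested.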

How the results depend on the processing

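Of 1176 alternative values for the 8 inhibitors, over 27 alternatives, 1045 kept the direction and side of the threshold, 44 lost a call, 39 gained one and 48 changed sign, of which 0 were called before or after. Of the 147 values for IL17RD 31 moved by more than the spread between replicates and 0 changed sign. The count of inhibitors called the same way in all 4 contrasts of an LmnB1 with an mCherry clone was 1, and became 0 with an effective length offset, with limma on log2(TPM + 0.1) or log2(TPM + 1), and without the 3 libraries that deviated together, an alternative chosen after seeing the data. Leaving out single libraries gave 0 to 1. Between the constructs 1 inhibitor was called, and the number was 0 with counts summed per clone (1 at an unadjusted p under 0.05 in edgeR), 0 with clone as a random effect in limma (1 unadjusted), 0 without mCherry_3 (edgeR, 1 unadjusted), 3 without mCherry_4, 4 without LmnB1_6, 2 without LmnB1_16 and 6 in a contrast of clone means, whose error is the spread within clones. That contrast called 7141 of the 15388 tested genes. Of the pathway lists 12 genes were called, against 0 with summed counts, 5 with the random effect, 34 in the contrast of clone means, 7 without mCherry_3, 21 without mCherry_4, 28 without LmnB1_16 and 7 without the 3 libraries. In LmnB1_6 against mCherry_3, 3 inhibitors were called, and 0 with the effective length offset (edgeR) or with limma on log2(TPM + 0.1) or log2(TPM + 1). Without the 3 libraries 2 in place of 4 were called in each LmnB1 clone against mCherry_4, and without a filter 5 in place of 3 in LmnB1_6 against LmnB1_16. In that contrast of the LmnB1 clones 4 were called with the effective length offset and with either limma fit on TPM, SPRED2 being the one added. Apart from the clone whose removal ends or adds a call, the cause of these changes was not tested.

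The replicate numbers did not pair the samples as a whole: 3 of 18 same-numbered pairs had a correlation of deviations over 0.1 (from -0.05 to 0.18). Those 3 were the pairs among replicate 3 of mCherry_4, LmnB1_6 and LmnB1_16 (0.119, 0.181 and 0.122). They lay above every differently numbered pair (at most 0.0923). With the replicate number as a block DUSP4 was called lower in LmnB1_6 than in mCherry_3 (-0.32, edgeR adjusted p = 0.0269) and SPRED1 in LmnB1_16 against mCherry_3 went from -0.004 to 0.001, uncalled. The construct comparison still had 1 inhibitor called with the block, while calls over all genes went from 2743 to 1648. DESeq2 called 3741 genes, limma on log2(TPM + 0.1) and log2(TPM + 1) 1684 and 1673, the random effect 163 and the summed counts 0 (642 unadjusted). Without mCherry_3 or LmnB1_6 edgeR called 647 and 1263, and without mCherry_4 or LmnB1_16 4958 and 4808. Among the inhibitors depth limits SPRY1 most, with 31 to 229 estimated counts a library.

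The values that changed sign were log2 fold changes of uncalled genes. Between the constructs without LmnB1_16, DUSP4 was at -0.617, SPRY1 at -0.433, DUSP5 at -0.135 and SPRY2 at -0.004, and DUSP5 was at -0.089 without mCherry_3, -0.076 without the 3 libraries and -0.036 and -0.035 with limma on log2(TPM + 0.1) and log2(TPM + 1). With these limma fits SPRED2 was at -0.058 and -0.055 and SPRY1 at -0.153 and -0.095 in LmnB1_6 against mCherry_3, SPRED2 at -0.063 and -0.061 in LmnB1_6 against mCherry_4, and DUSP6 at -0.354 and -0.329 in mCherry_4 against mCherry_3. The effective length offset gave -0.061 for SPRED2 in LmnB1_6 against mCherry_4 and -0.267 for DUSP6 in mCherry_4 against mCherry_3. Without the 3 libraries SPRED1 was at 0.011 in LmnB1_16 against mCherry_3, -0.013 in LmnB1_16 against mCherry_4 and 0.024 in mCherry_4 against mCherry_3. Leaving out single libraries gave ranges that span 0. They were -0.058 to 0.112 for DUSP5 between the constructs, -0.067 to 0.173 in LmnB1_16 against mCherry_4 and -0.231 to 0.153 in LmnB1_6 against mCherry_3. For SPRED1 they were -0.096 to 0.097 in LmnB1_16 against mCherry_3, -0.049 to 0.069 in LmnB1_16 against mCherry_4 and -0.106 to 0.087 in mCherry_4 against mCherry_3. In LmnB1_6 they were -0.053 to 0.063 for SPRED2 against mCherry_4 and -0.047 to 0.333 for SPRY1 against mCherry_3. In mCherry_4 against mCherry_3 they were -0.025 to 0.215 for DUSP6 and -0.159 to 0.049 for SPRY4. The cause of these turns was not tested.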
